A study of Homo sapiens with 4 samples.

Results

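The regions described here are 249 long stretches of chromosomes 1 to 22 in which no FOXA2 peak was called in PC3 cells. They were chosen by the distance between neighbouring peak summits after the vehicle list and the GSK2879552 list were pooled. A stretch of 1 Mb or more counted as a gap, and the 18 stretches that span a centromere were left out. The 249 gaps were 0.718% of the 34661 distances between neighbouring summits. They covered 415 Mb, which is 15.4% of the 2690 Mb lying between the first and last summit of each chromosome outside the centromere stretches. Being chosen by position, the gaps are described by number and length with no test.

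The study measured FOXA2 occupancy by chromatin immunoprecipitation and sequencing (ChIP-seq) in PC3, an androgen-independent prostate cancer cell line. One group received vehicle; the other received GSK2879552, which inhibits LSD1 (KDM1A), a demethylase of histones, at 50 µM for 4 hours, in medium with 5% charcoal-stripped serum. Both groups were the same cell line, and each comprised 2 lanes labelled as technical replicates that share 1 deposited peak list. The spread between cultures is therefore not measured, and every difference below is one between 2 libraries, with no p-value. Per the titles and the series, the assay was FOXA2 ChIP-seq; the word ATAC-seq in the sample descriptions was not followed. The treatment protocol given for the vehicle samples also names GSK2879552. The groups were taken from the agent and title of each sample, and every vehicle value below rests on those labels. On chromosomes 1 to 22 the vehicle list held 20455 peaks and the GSK2879552 list 14228. Chains of overlapping peaks from both lists were joined into 21947 sites, a mean of 8.16 per Mb.

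FOXA2 is a forkhead transcription factor that can bind its motif on compacted chromatin and open it for other factors. Binding of such factors is uneven: sites gather at enhancers near active genes. Gene deserts, silent heterochromatin and repeats in which short reads cannot be placed uniquely hold few of them. LSD1 removes methyl groups from histone H3 and is found with repressor complexes at enhancers and promoters. A gap is a stretch where no peak was called, which is not the same as a stretch shown to be unbound. How much of each gap can hold uniquely placed reads was not tested. No sequence of the hg19 build, in which the peaks are placed, was used here, so no sequence is shown.

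Most gaps were close to the lower limit, and a few were several megabases long. The median length was 1.39 Mb (interquartile range 1.14 to 1.99), and lengths ran up to 6.46 Mb. There were 106 gaps of at least 1.5 Mb, 61 of at least 2 Mb, 12 of at least 3 Mb and 4 of at least 5 Mb. The 61 gaps of at least 2 Mb made up 40.5% of the summed gap length. For comparison, the median distance between neighbouring summits outside centromeres was 12348 bp (37 to 76802). Both lists enter that distance, so many of the short values separate a vehicle from a GSK2879552 summit of 1 site.

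**Figure D1:**
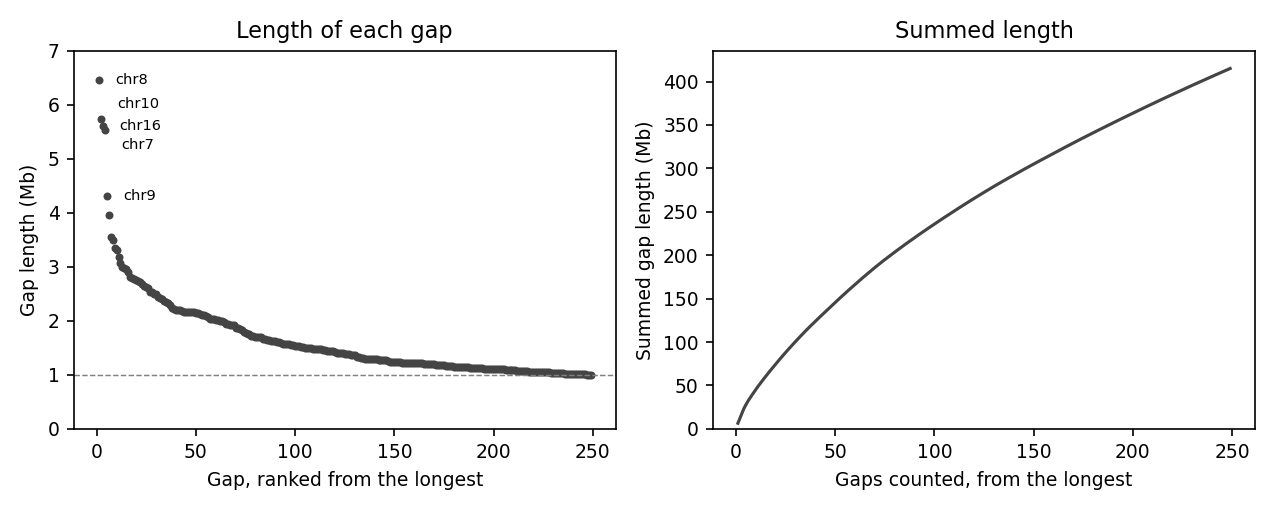
Left, the length of each of the 249 gaps in Mb (linear axis) against its rank, each point 1 gap, with the 1 Mb limit dashed and the chromosome of the 5 longest named. Right, the summed length in Mb as gaps are counted from the longest. The 4 longest stand above 5 Mb, and the sum reaches 415 Mb.

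The limit of 1 Mb cut through a continuous range. The shortest gaps counted were chr2:628788-1629242 at 1000454 bp, chr7:49167244-50169433 at 1002189 bp and chr21:32739257-33744564 at 1005307 bp. The longest distances left out were chr14:23340515-24339549 at 999034 bp, chr1:213458099-214456764 at 998665 bp and chr13:105118638-106115466 at 996828 bp. A further 715 distances lay between 0.5 and 1 Mb and summed to 478 Mb. The 18 stretches over centromeres, which were left out, were up to 21.1 Mb long.

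The 10 longest gaps lay on 8 chromosomes. Genes are named beside them as background. No hg19 annotation was used here, so each gene was placed from general knowledge of the human map and not by computation. The 28 symbols were chosen as well-known examples after the gaps were seen, and all 28 were found in the RefSeq gene table (GRCh38.p14) on the chromosome of their gap. Nothing is drawn from which genes are named.

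The longest gap, chr8:116070-6571613, spanned 6.46 Mb at the tip of the short arm of chromosome 8. It covers CSMD1, a very large gene for a membrane protein with complement-control domains, together with DLGAP2, a postsynaptic scaffold gene, and MCPH1, whose product regulates chromosome condensation. Its left border was a site in both lists, with 19 fragments at the summit in vehicle and 11 in GSK2879552. Its right border was a weak peak in vehicle alone, with 9 fragments. That lone peak also opened the next gap of 1.72 Mb. Without this peak and another vehicle peak farther in, both absent from the GSK2879552 list, the stretch was 8.37 Mb long in that list.

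The second, chr10:128439457-134177942, spanned 5.74 Mb near the end of the long arm of chromosome 10. It covers DOCK1, an activator of the GTPase Rac, MKI67, the gene of a widely used proliferation marker, MGMT, a DNA repair gene, and EBF3, a developmental transcription factor gene. Both borders were in both lists and both had more fragments after GSK2879552. At the left border 19 fragments were found in vehicle against 24 after GSK2879552, and at the right border 12 against 20.

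The third, chr16:5074887-10678907, spanned 5.60 Mb on the short arm of chromosome 16. It covers RBFOX1, a neuronal splicing regulator gene, USP7, a deubiquitinase gene, and GRIN2A, which encodes an NMDA receptor subunit. Neither border was shared: the left was a GSK2879552 peak of 12 fragments and the right a vehicle peak of 29 fragments. The fourth, chr7:66606276-72135892, spanned 5.53 Mb and covers AUTS2, a gene of brain development. Its left border was in vehicle alone with 20 fragments, and its right border carried 18 (vehicle) and 12 (GSK2879552).

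The fifth, chr9:118906504-123208474, spanned 4.30 Mb over ASTN2, a gene of neuronal migration, TLR4, an innate immune receptor gene, and BRINP1. Both borders were in vehicle alone, with 15 and 9 fragments. The gap chr12:2365126-6328567 spanned 3.96 Mb and covers CCND2 (cyclin D2), the hormone gene FGF23, the potassium channel gene KCNA1, the neurotrophin gene NTF3 and VWF (von Willebrand factor). A GSK2879552 peak of 15 fragments bordered it on the left, and a site of 13 vehicle and 12 GSK2879552 fragments on the right.

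The gap chr7:152107176-155654926 spanned 3.55 Mb over DPP6, an accessory subunit gene of potassium channels, the serotonin receptor gene HTR5A and the homeobox gene EN2. Its left border, in vehicle alone, had 21 fragments over a local background of 3.90, and its right border had 26 fragments in vehicle and 18 in GSK2879552. The gap chr22:32267181-35760370 spanned 3.49 Mb over SYN3, a synapsin gene, and TIMP3, a metalloproteinase inhibitor gene. Both of its borders were in both lists, with 28 and 22 fragments on the left and 21 and 16 on the right, vehicle first.

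The gap chr10:84882264-88233549 spanned 3.35 Mb over GRID1, a glutamate receptor family gene, between a vehicle peak of 9 fragments and a GSK2879552 peak of 10. The last, chr5:1800291-5105815, spanned 3.31 Mb over the homeobox genes IRX4, IRX2 and IRX1, between vehicle peaks of 13 and 10 fragments. Of the 20 borders of these 10 gaps, 8 were in both lists, 9 in vehicle alone and 3 in GSK2879552 alone. Over all sites these shares were 57.8%, 35.4% and 6.87%, and over all 483 border sites 51.8%, 40.2% and 8.07%. Whether the 20 borders differ from these shares was not tested.

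Gaps were found on each of the 22 chromosomes, in very unequal numbers. Chromosome 1 held the most, 29, in a span of 228 Mb. Chromosome 16 held 21 in only 79.0 Mb, or 26.6 gaps per 100 Mb, and 47.9% of its span lay in gaps. Chromosome 21 held a single gap, and 2.85% of its span lay in it. Chromosomes 22, 19 and 10 followed chromosome 16, with 30.8%, 27.9% and 25.1% of their spans in gaps. Chromosomes 4 and 5 were low, at 7.18% and 7.77%.

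The longest gap of a chromosome was over 5 Mb on chromosomes 7, 8, 10 and 16. It was 4.30 Mb on chromosome 9 and 3.96 Mb on chromosome 12. Chromosomes 5, 17, 19 and 22 had a longest gap of 3.31, 3.18, 3.07 and 3.49 Mb. On chromosomes 1, 2, 3, 6, 11, 15, 18 and 20 it lay between 2.19 Mb (chromosome 1) and 2.97 Mb (chromosome 15). On chromosomes 4, 13, 14 and 21 no gap reached 2 Mb, with longest values of 1.66, 1.69, 1.98 and 1.005 Mb.

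A chromosome with fewer sites leaves longer distances by construction, so the site density is given beside the gap share. Over the 22 chromosomes, Spearman's rho between the share of span in gaps and sites per Mb was -0.50. Chromosomes 16, 19 and 22 had nearly equal densities of 4.04, 3.84 and 3.85 sites per Mb, but 47.9%, 27.9% and 30.8% of their spans in gaps. Chromosome 10, at 9.06 sites per Mb, had 25.1% in gaps, against 8.27% on chromosome 2 at 9.37 sites per Mb. On chromosome 10 dense and empty stretches thus stood side by side.

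The arms of 1 chromosome could differ widely. On chromosome 8 the short arm had 40.8% of its span in gaps and 4.76 sites per Mb, against 12.3% and 12.4 sites per Mb on the long arm. On chromosome 17 the short arm had 40.1% in gaps and the long arm 7.81%. On chromosome 4 these shares were 22.3% and 1.78%. On chromosome 16 both arms were high, with 56.7% on the short and 40.8% on the long arm. The local background, in fragments expected per position by the peak caller, also differed between arms. Its median at vehicle peaks was 1.28 on the short and 2.77 on the long arm of chromosome 8, and 1.10 and 2.24 on those of chromosome 17.

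Over whole arms, a low median background at called peaks and many gaps did not always go together. The long arm of chromosome 10 had the highest median background of the 39 arms of at least 10 Mb, 3.19, and 27.6% of its span in gaps. Of its 835 sites, 398 lay in chr10:45220853-72603737 and 149 in chr10:74672684-81982631. Its median therefore mostly describes dense stretches and does not give the background in or beside its gaps. The long arms of chromosomes 6 and 4 had backgrounds of 1.21 and 1.33 but only 9.47% and 1.78% in gaps. Over these 39 arms, Spearman's rho of the gap share was -0.66 with sites per Mb and -0.33 with the vehicle background. Arms of 1 library share its depth, and sites per Mb and background were themselves related (rho 0.75). The part of the background in the gap share was not tested.

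**Figure D2:**
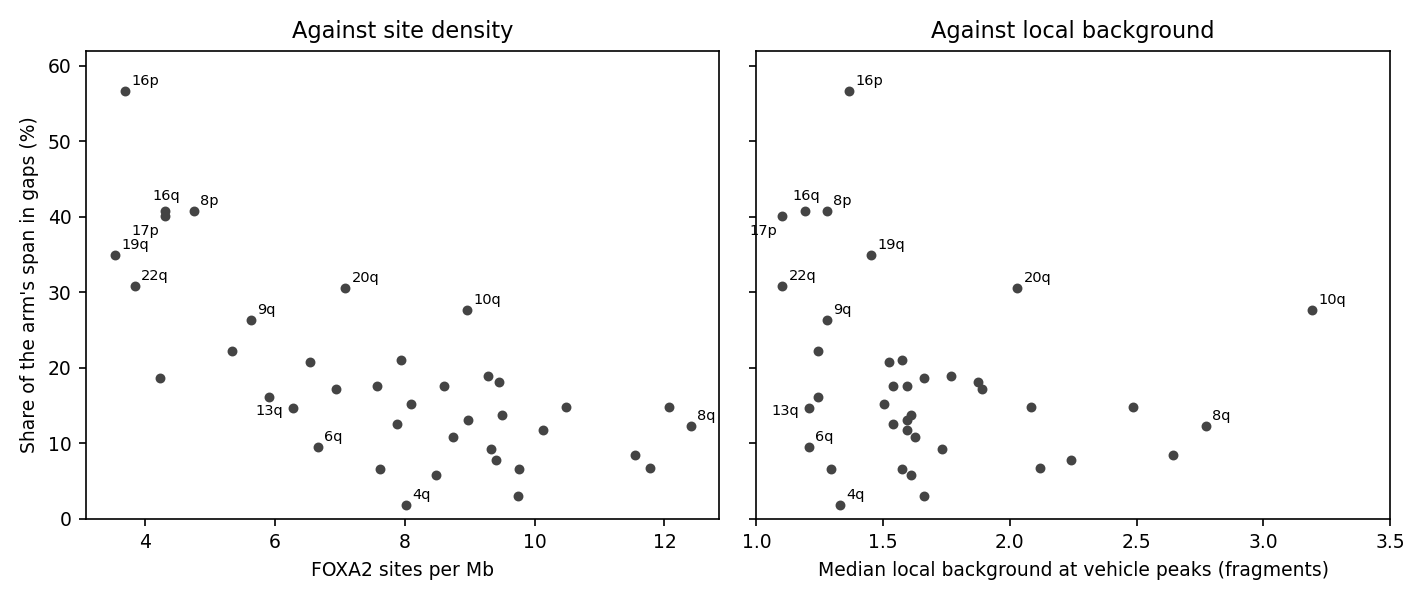
Each point is 1 of 39 chromosome arms; the vertical axis is the share of the arm's span lying in gaps (percent). Left, against FOXA2 sites per Mb; right, against the median local background at vehicle peaks, in fragments. The short arm of chromosome 16 is highest at 56.7%. The long arm of chromosome 10 has a median of 3.19 at its vehicle peaks, many of them in dense stretches, and 27.6% in gaps.

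Gaps were denser toward the ends of the mapped span. Within 10 Mb of the first or last summit of a chromosome lay 64 gaps, 25.7% of them, in 16.2% of the span. That was 14.6 gaps per 100 Mb, against 7.53 in the middle of the arms. Within 10 Mb of a centromere stretch there were 41 gaps, or 12.1 per 100 Mb. Gaps near the ends were also longer, with a median of 1.63 Mb against 1.30 Mb in the middle. Site density was 5.96 per Mb near the ends, 8.25 near centromeres and 8.65 in the middle. The start of the mapped span on chromosomes 13, 14, 15 and 22, which lies beside their centromeres, was counted as an end.

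Some gaps were separated by a single site or by very short islands of peaks. Of 210 stretches between neighbouring gaps, 61 were under 1 Mb, 20 were under 100 kb and 15 consisted of 1 site. The median stretch was 2.95 Mb (interquartile range 0.861 to 7.72). The 15 lone sites were mostly called in vehicle alone: 11 of 15 (73.3%, 95% interval 44.9 to 92.2), where 35.4% of all sites were vehicle-only. They carried few fragments, with a median of 12 in vehicle (8 to 34), and weak vehicle peaks away from gap borders were mostly vehicle-only too. Vehicle peaks were put in 5 equal bins by the peak caller's −log10 p. In the weakest bin, with a median of 11 fragments, 23.3% of peaks away from borders were overlapped by a GSK2879552 peak. In the second bin, with a median of 14, it was 39.7%.

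The lone site with the most fragments, 34 in vehicle and 20 in GSK2879552, split chromosome 2 into gaps of 2.01 and 1.60 Mb around position 130998837. A vehicle-only peak of 29 fragments at position 10678907 of chromosome 16 stood between gaps of 5.60 and 1.10 Mb. On chromosome 10 a vehicle peak of 9 fragments at position 84882264 stood between 2.90 and 3.35 Mb. On chromosome 8, 2 lone vehicle peaks of 12 fragments each, at 54314352 and 55542125, divided a run of 3 gaps of 1.503, 1.23 and 1.09 Mb. Among the other vehicle-only lone sites, the one with the fewest fragments, 8, was on chromosome 18 at 48443621, and one on chromosome 4 at 10008005 had 19.

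The gaps had 483 border sites, of which 15 bordered a gap on each side. A border site was in both lists in 250 cases (51.8%, 95% interval 47.2 to 56.3), in vehicle alone in 194 (40.2%, 35.8 to 44.7) and in GSK2879552 alone in 39 (8.07%, 5.80 to 10.9). Over all sites these shares were 57.8%, 35.4% and 6.87%. Of the remaining sites 57.9% (57.2 to 58.6) were in both lists, an interval above that of the border sites. Intervals are exact binomial ones and cover counting error only. Both borders were in both lists at 68 of the 249 gaps, and 44 had vehicle-only peaks on both sides.

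Of 444 vehicle peaks at borders, 250 (56.3%, 51.6 to 61.0) were overlapped by a GSK2879552 peak. The share over all vehicle peaks was 62%, and 62.2% (61.5 to 62.8) over those away from borders. Of 291 GSK2879552 border peaks, 252 (86.6%, 82.1 to 90.3) were overlapped by a vehicle peak, against 89.4% over all GSK2879552 peaks and an interval of 88.9 to 90.0 for those away from borders. The interval of the vehicle borders lay below that of the other vehicle peaks, and those of the GSK2879552 list overlapped.

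Border peaks had fewer fragments at a similar enrichment. The median was 16 fragments (interquartile range 12 to 22) at vehicle borders and 19 (14 to 28) at the other vehicle peaks. The deposited fold enrichment had medians of 7.21 and 7.08, respectively. At GSK2879552 borders the medians were 16 fragments (12 to 20) and a fold of 6.79, against 18 (13 to 25) and 6.60. Very strong peaks were fewer at borders: 12.8% of vehicle and 13.7% of GSK2879552 border peaks were among the strongest 20% of their list by −log10 p.

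The local background was lower at border peaks than at other peaks. In 145 of 444 vehicle border peaks (32.7%, 28.3 to 37.2) it was at its floor, the lowest value the peak caller uses, against 10.7% of all vehicle peaks. In the GSK2879552 list it was 84 of 291 (28.9%, 23.7 to 34.4), against 9.76% of all. Median backgrounds were 1.24 fragments at vehicle borders and 1.70 at other vehicle peaks, and 1.28 and 1.73 in the GSK2879552 list. Borders were chosen for having no other summit within 1 Mb on the gap side, so these values are not independent of the rule. How far reads of neighbouring sites enter the local background was not tested.

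The difference in floor share was also present within arms, where it is likewise not independent of the rule. Weighting the other vehicle peaks by the arms that carry the borders gave 14.7% at the floor, still 17.9 percentage points below the borders; without this weighting the distance was 22.5 points. In the GSK2879552 list the weighted share was 14.3%. Of 33 arms with at least 5 vehicle border peaks, the floor share was higher at borders in 27 and lower in 5. In the GSK2879552 list it was higher in 22 and lower in 6 of 30 such arms.

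In the vehicle list these values changed by degrees with the isolation of a site. Sites were grouped by the larger of the distances to their neighbours, and the background floor share is not independent of that grouping. The share of vehicle peaks at the background floor was 1.04% where that distance was under 10 kb, 5.85% at 10 to 100 kb, 13.7% at 100 to 500 kb, 24.3% (21.9 to 26.8) at 0.5 to 1 Mb and 32.7% at gap borders. The share of vehicle peaks overlapped by a GSK2879552 peak went from 68.3% under 10 kb through 63.5%, 60.7% and 57.8% to 56.3%. Peaks of the 0.5 to 1 Mb class and gap borders did not differ beyond their intervals in this share (55.0 to 60.6 and 51.6 to 61.0). The median number of vehicle fragments was 27, 20, 17, 16 and 16. The floor share of GSK2879552 peaks likewise went from 0.279% under 10 kb through 5.35%, 12.4% and 25.9% to 28.9% at borders. The other values of that list turned at the last step: the overlapped share was 91.1%, 90.9%, 88.4%, 84.8% and then 86.6% at borders, with overlapping intervals in the last 2 classes, and the median fragments were 29, 19, 16, 15 and then 16.

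**Figure D3:**
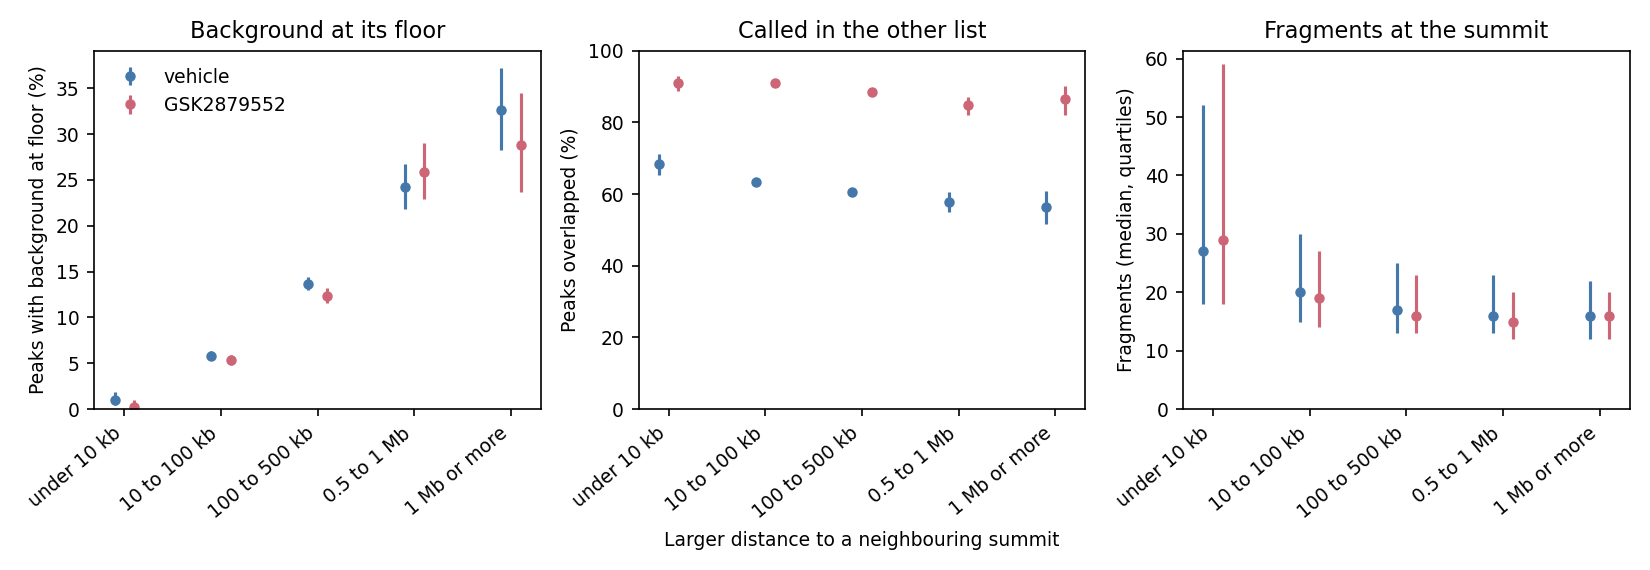
Peaks grouped by the larger distance to a neighbouring summit, with vehicle and GSK2879552 side by side. Left, the share with the local background at its floor; middle, the share overlapped by the other list, both with exact 95% intervals; right, summit fragments as medians with quartiles. Gap borders (1 Mb or more) have the highest floor share, 32.7% in vehicle, and their overlapped share of 56.3% is close to that of the 0.5 to 1 Mb class.

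With peaks divided by local background, the shares called in both lists were close at borders and elsewhere. Among vehicle peaks at the floor, 36.6% of 145 border peaks (28.7 to 44.9) and 38.4% of 2036 other peaks (36.3 to 40.6) were overlapped by a GSK2879552 peak. Among those above the floor it was 65.9% of 299 (60.2 to 71.2) and 64.9% of 17975 (64.2 to 65.6). In the GSK2879552 list the shares were 75% and 76.5% at the floor, and 91.3% and 90.8% above it. The intervals of border and other peaks overlapped in all 4 of these comparisons. Peaks at the floor were also weaker. In vehicle, border and other peaks had medians of 13 and 13 fragments at the floor, against 18 and 20 above it. In GSK2879552 these were 13 and 12, against 18 and 19. The division by background is thus also one by strength, and their parts in the overlapped shares were not tested.

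**Figure D4:**
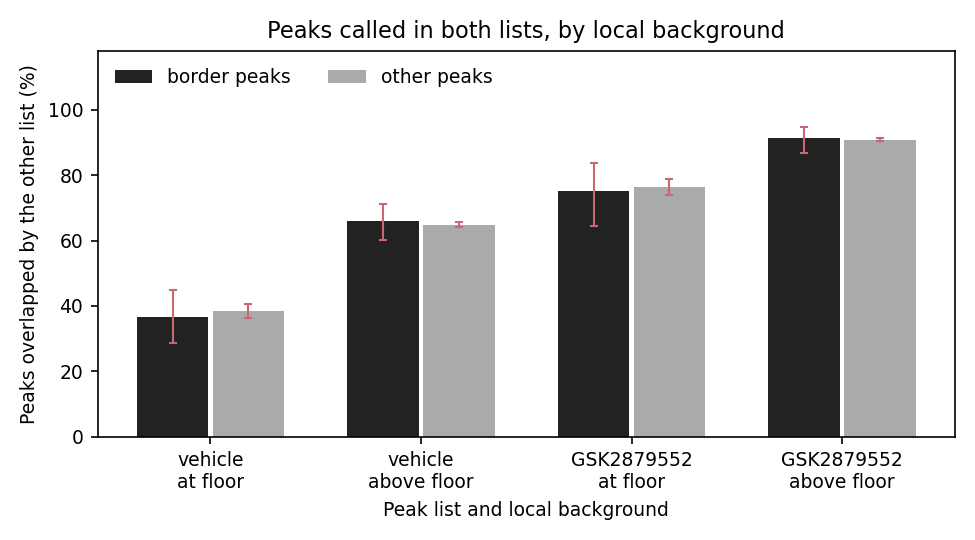
Bars give the share of peaks overlapped by a peak of the other list (percent, from 0), for border peaks (dark) and other peaks (grey), split by list and by whether the local background was at its floor. Error bars are exact 95% intervals. Vehicle peaks at the floor stand at 36.6% (border) and 38.4% (other), and the intervals of border and other peaks overlap in each pair. Peaks at the floor also had fewer fragments than those above it.

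Split by strength alone, the borders were slightly lower in most vehicle bins, within overlapping intervals. With vehicle peaks in 5 equal bins of −log10 p, 18% of border peaks (11 to 26.9) and 23.3% of other peaks (22 to 24.6) were overlapped in the weakest bin, and 98.2% (90.6 to 99.96) and 99.3% (99.0 to 99.5) in the strongest. Borders were lower in 4 of 5 bins, by a mean of 2.26 percentage points over the bins. In the GSK2879552 list they were lower in 2 of 5 bins. The intervals of border and other peaks overlapped in every bin of both lists.

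Where a border site was in both lists, it mostly had fewer fragments after GSK2879552, as sites elsewhere did. Over 250 such border sites vehicle summits had a median of 20 fragments, against 16 after GSK2879552. The number was lower at 191 (76.4%), equal at 17 and higher at 42, where 78.2% of all shared sites were lower. The median log2 ratio, scaled by the background floors of the libraries, was -0.30 (interquartile range -0.51 to -0.07) at borders and -0.32 (-0.59 to -0.08) at other sites. The lowest ratio at a border was on chromosome 18 at position 49838935, with 27 fragments in vehicle and 10 in GSK2879552. The highest were on chromosome 4 at 133746580, with 9 and 15, and at the right border of the 5.74 Mb gap of chromosome 10.

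A few gaps began or ended at strong sites. The border peak with the highest −log10 p in vehicle, chr1:173618378-173618738, had 107 fragments and a fold of 17.1 beside a gap of 1.52 Mb. It was the 77th strongest peak of its list on chromosomes 1 to 22, and 75 fragments covered it in GSK2879552. At chr3:140675952-140676348, beside a gap of 1.99 Mb, there were 77 vehicle and 65 GSK2879552 fragments, and this was the strongest border peak of the GSK2879552 list. The peak chr20:58532575-58533028, beside 2.13 Mb, had 78 and 55 fragments. At chr11:5642417-5642783, beside 1.49 Mb, the numbers were 61 and 43, and at chr2:127984191-127984620, beside 2.14 Mb, 64 and 63. In the GSK2879552 list chr19:46777191-46777498, with 41 fragments against 39 in vehicle, took the place of the chromosome 11 site among the first 5. Each of these 6 sites was called in both lists. In the strongest of the 5 bins, 99.3% of other vehicle peaks and 99.96% of other GSK2879552 peaks were overlapped.

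The gap with the strongest weaker border by −log10 p was chr11:114434060-116723411, 2.29 Mb long, with 35 vehicle and 29 GSK2879552 fragments on the left and 48 and 35 on the right. It was followed by chr1:60204087-61598909 of 1.39 Mb, with 25 and 23 on the left and 34 and 29 on the right. The gaps chr14:19038429-20869398, chr20:58532822-60663719 and chr22:32267181-35760370 came next, at 1.83, 2.13 and 3.49 Mb. On the left of the chromosome 14 gap the 39 GSK2879552 fragments stood over a high local background of 4.84, a fold of only 6.85. All 10 borders of these 5 gaps, chosen for strength, were in both lists. In the fourth and the strongest of the 5 vehicle bins, 86.8% and 99.3% of peaks away from borders were overlapped. The chromosome 22 gap tied for the fifth place with chr16:95609-1128717 of 1.03 Mb, as the −log10 p at the weaker border was 20.8 in each.

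Outside the border sites, other sites were somewhat more frequent close to a border than farther out. Going outward from the border summit, with the border site itself left out, there were 9.74 sites per Mb within 10 kb and 9.66 at 10 to 50 kb. The density was 8.61 at 50 to 100 kb, 7.15 at 100 to 200 kb, 6.38 at 200 to 500 kb and 6.39 at 500 to 1000 kb, against the mean of 8.16 over the span. The first value rests on 48 sites at 493 borders. Beside distances of 0.5 to 1 Mb the density was 14.8 within 10 kb and 7.18 at 500 to 1000 kb. From 200 kb outward, gap flanks thus held fewer sites than the span as a whole and than the flanks of 0.5 to 1 Mb distances.

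**Figure D5:**
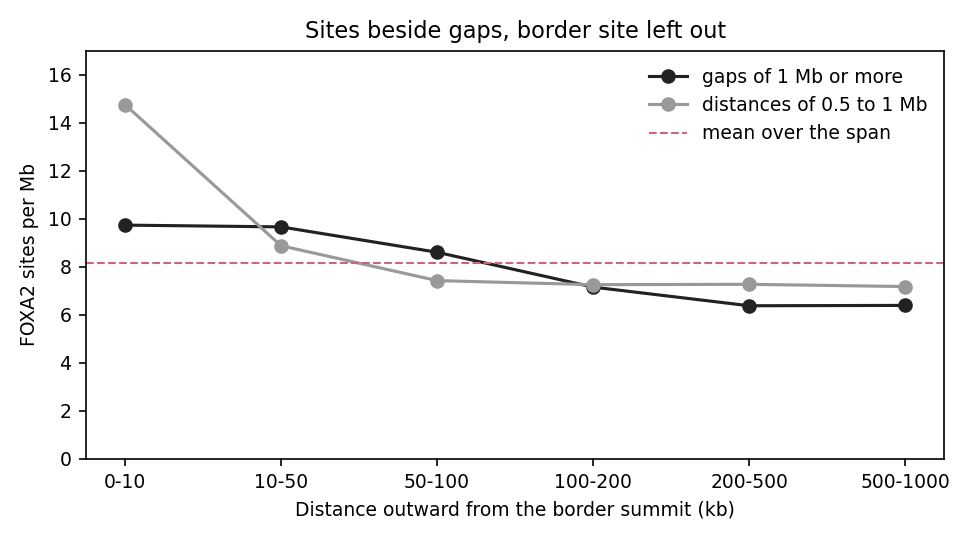
FOXA2 sites per Mb (vertical axis, from 0) in steps outward from the border summit (kb; steps of unequal width), with the border site left out, beside gaps of 1 Mb or more (black) and distances of 0.5 to 1 Mb (grey). The dashed line is the mean over the span, 8.16. Beside gaps the density goes from 9.74 within 10 kb to 6.39 at 500 to 1000 kb.

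Each list alone had more gaps than the pooled lists, and the GSK2879552 list had the most. The vehicle list alone had 277 (1.36% of its neighbouring distances), covering 457 Mb or 16.98% of its span. The GSK2879552 list alone had 385 (2.71%), covering 648 Mb or 24.1%. Median lengths were equal, at 1.38 Mb. Holding the vehicle list to its strongest peaks, so that it had as many peaks as the GSK2879552 list, gave 375 gaps and 23.7% of the span. These values were close to those of the GSK2879552 list, in a setting chosen after seeing the data. Why the GSK2879552 list was shorter was not tested.

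The GSK2879552 list had 1508 peaks that no vehicle peak overlapped, and the vehicle list had 7763 without a GSK2879552 peak, so fewer peaks could break a vehicle gap. Of the 277 vehicle gaps, 213 held no GSK2879552 peak besides those overlapping their borders, 64 (23.1%) were broken, and 249 still contained a stretch of 1 Mb or more after pooling. The 82 GSK2879552 peaks inside vehicle gaps had a median of 12 fragments (10 to 13). They numbered 0.180 per Mb of gap, where GSK2879552-only peaks numbered 0.561 per Mb of span. Of the 385 GSK2879552 gaps, 88 held no such vehicle peak and 297 (77.1%) were broken, 103 of them by 1 peak; 236 still contained 1 Mb after pooling. The 693 vehicle peaks inside them had a median of 13 fragments (11 to 15), and all 7763 vehicle-only peaks had a median of 14. They numbered 1.07 per Mb of gap, where vehicle-only peaks numbered 2.89 per Mb of span. In both lists, peaks of the other list were thus sparser inside gaps than over the span.

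Most of the longest stretches broken in this way contained one of the 10 longest gaps of the pooled lists; chr8:10538602-15362756, chr17:11939339-15193293 and chr19:27821704-30639002 did not. In the GSK2879552 list chr8:116070-8490370, of 8.37 Mb, held 2 vehicle peaks of at most 12 fragments. The stretch chr16:5074887-12010650, of 6.94 Mb, held 4 vehicle peaks, the strongest with 29 fragments, and chr10:81982563-88233549, of 6.25 Mb, held 1 of 9 fragments. The stretch chr7:66594342-72135923, of 5.54 Mb, held 1 vehicle peak of 20 fragments near its edge, which left 5.53 Mb. On chromosome 8, chr8:10538602-15362756 of 4.82 Mb held 3 of at most 13 fragments, and 2.16 Mb was the longest piece left. In the vehicle list, chr16:4994750-10678907 (5.68 Mb), chr12:1879451-6328639 (4.45 Mb), chr10:84882264-88589524 (3.71 Mb), chr17:11939339-15193293 (3.25 Mb) and chr19:27821704-30639002 (2.82 Mb) were each broken by 1 GSK2879552 peak. That peak had 10 to 21 fragments.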

How the data were processed

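FOXA2 ChIP-seq peak lists of PC3 cells were used, 1 list per group. The submitters' processing notes name MACS2 2.1.2, BWA 0.7.2 and SAMtools 0.1.18, and the hg19 (GRCh37) build. Which options and threshold were set, and whether duplicates were removed or a control library served, is not given in the sources used here. For each summit, the deposited fold enrichment (a ratio), −log10 p and score (10 times the −log10 q, as a whole number) are the authors' peak caller's values; start, end and summit offset are in bp. Folds describe peaks within a list. The depth of the libraries is unknown.

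Summits of both lists were pooled and distances taken on chromosomes 1 to 22. The stretch over each centromere was found from its approximate hg19 position, written by hand. The fold was read as (fragments + 1)/(background + 1) and p as the upper tail of a Poisson distribution, which gives both numbers at each summit. A whole number matched 100% of peaks within 0.001. The floor is the lowest background of a list, 1.08 fragments in both, with 1% tolerance. Overlap means 1 bp or more. Intervals are exact Clopper-Pearson 95% ones. Gap finding, overlap and fragment numbers were tested on simulated data. Python 3.11.15, pandas 2.3.3 and SciPy 1.17.1 were used.

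Named regions were the 10 longest gaps, each chromosome's longest, those nearest 1 Mb, the 5 strongest borders of each list, the 5 gaps with the strongest weaker border, the shortest islands and the 5 longest broken gaps of each list. The lone sites, ratios and arms named beyond that were chosen after their values were seen. Regions and alternatives were chosen with earlier results of these data known. Gene content, base composition and motifs of the gaps were not analysed here.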

Additional observations from a re-analysis of the deposited data

How the results depend on the processing

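The number of gaps followed the limits set. It was 964 at a minimum of 0.5 Mb and 61 at 2 Mb, with 33.2% and 6.26% of the span in gaps. Peaks with a −log10 q of at least 10 gave 500 gaps and 32.2%, and those of at least 5 gave 267 and 17.02%. Positions in both lists gave 445 gaps. The GSK2879552 list alone gave 385 and 24.1%, the vehicle list alone 277 and 16.98%, and the vehicle list at the GSK2879552 list's length, a setting chosen after seeing the data, 375 and 23.7%. Counting centromere stretches gave 267 and 18.4%, and distances between interval edges 249. Fewer peaks leave longer distances by construction. The overlapped share of vehicle borders was 36.6% at the background floor and 65.9% above it, a division chosen after seeing the data. Border peaks at the floor also had fewer fragments. Other overlap rules, gap limits and thresholds kept the overlapped share between 53.6% and 58.2%. The share of border sites in both lists ran from 49.3% to 53.3%, with other overlap rules and gap limits. The median of 16 border fragments was the same in both lists when every peak within 1 kb of a border summit was counted; leaving out positions of high background removed no border peak, and other settings were not run for it. The weighting by arms was also chosen after seeing the data. Single lanes could not be left out of lists that join them. No paired analysis was possible because there is only 1 list for each condition. Gene content, base composition and motifs were not run. The depth is unknown, and a site too weakly covered to be called would close a gap.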
